A study of Mus musculus with 6 samples.

Results

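The 10 genes described here encode the machinery that makes peptides and loads them on MHC class I molecules: the immunoproteasome subunits Psmb8, Psmb9 and Psmb10, the proteasome activator subunits Psme1 and Psme2, the peptide transporter subunits Tap1 and Tap2, the loading factor Tapbp, the class I light chain B2m and the transactivator Nlrc5. They were picked out by gene symbol, with earlier results of these data known, and all 10 were found among the 52459 rows of the deposited count table. RNA was sequenced from 6 mouse liver tumour samples, 3 in which the MYC transgene was active (labelled MYC-On, written MYC_On here) and 3 taken 4 days after MYC was inactivated (labelled MYC-Off Day 4, written MYC_Off here). All 6 were of genotype MYC-LAP-tTA, where a liver-type promoter drives the tetracycline transactivator that keeps the transgene on, so that MYC_On differs from MYC_Off only in the state of the transgene as far as the labels say. The title of the series asks about suppression of the anti-tumour immune response by MYC. Strain, age and sex are not given, and the labels do not state if each sample was a different mouse. The p-values therefore describe only how far these libraries vary, and that variation may be technical.

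MHC class I molecules display short peptides from the proteins of a cell to CD8 T cells. The proteasome cuts the peptides, the TAP transporter carries them into the endoplasmic reticulum, and tapasin helps to load them on a heavy chain paired with beta-2-microglobulin. Interferon-gamma raises most of these genes, partly through Nlrc5, and replaces the catalytic subunits of the ordinary proteasome with those of the immunoproteasome. Healthy hepatocytes are known for a low level of surface class I compared with leukocytes.

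The libraries held 16292718 to 19265623 reads assigned to genes, so that 1 read was worth 0.0519 to 0.0614 CPM (reads scaled to one common library total) before composition scaling. The 20 most abundant genes took 11.7% to 19.2% of the reads in MYC_On and 29.9% to 39.1% in MYC_Off, and CPM are therefore given after TMM scaling, which corrects for such a shift in composition. Myc, the check of the labels, stood at 884 ± 122 CPM (SD, n = 3) in MYC_On and at 34.6 ± 35.1 CPM (n = 3) in MYC_Off. In the fit across all genes with edgeR's quasi-likelihood test, 52.7% of the 14130 tested genes changed at an adjusted p under 0.05, 29.9% being higher and 22.8% lower in MYC_Off. Such a background means that a call on its own singles out little, and the size of each change is given against the median of all tested genes, a log2 fold change (MYC_Off minus MYC_On) of 0.18. Scaling by library size alone moved that median by -0.74 to -0.56, and changes relative to the median were nearly the same under both scalings (3.86 and 3.94 for Psmb8).

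Of the 10 genes, all were tested, 9 rose in MYC_Off and none fell by the edgeR test, where Psmb10 was lower at an unadjusted p under 0.05 and DESeq2 called 1 gene lower, again Psmb10. Their median log2 fold change was 2.92. The 3 MYC_Off libraries lay above the 3 MYC_On libraries without overlap for 9 genes, as they did for 33.2% of tested genes, and below them for Psmb10, as for 29.8% of tested genes. With library size alone 6 of the 10 genes were higher and 1 lower, against 17.9% and 37.5% of all tested genes, and their median was 2.17. Psme1, Psme2 and Nlrc5 were the genes whose call was lost under that scaling.

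**Figure D1:**
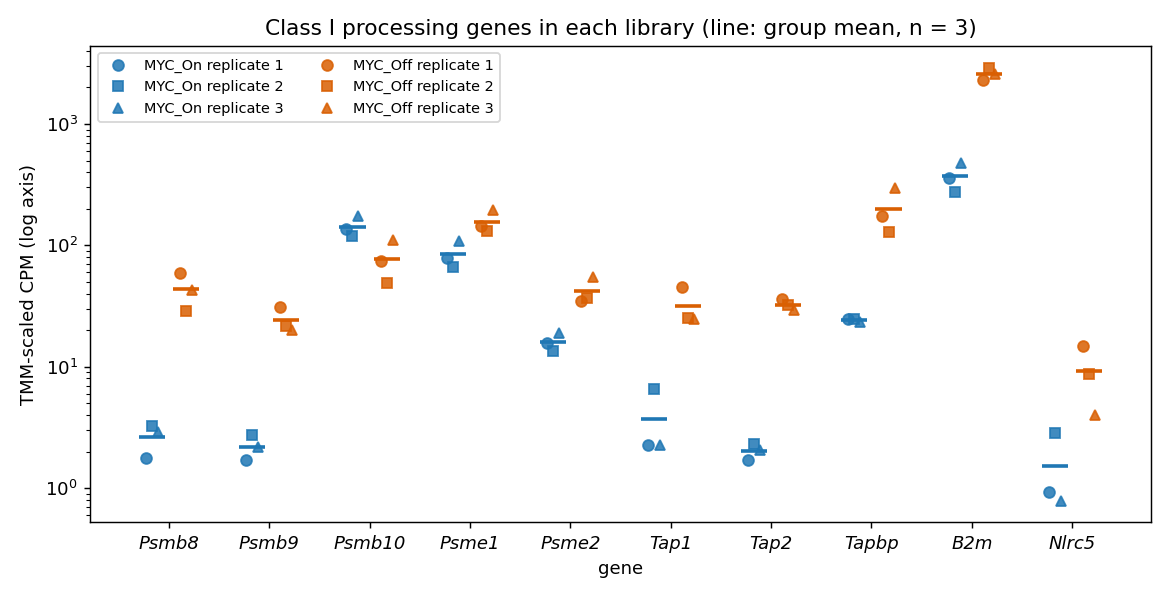
TMM-scaled CPM (log axis) of each of the 10 genes in the 6 libraries, with 1 point per library and a bar at the mean of each group. Psmb10 is the gene with its MYC_Off libraries below its MYC_On libraries, and B2m is the highest gene, at 2296 to 2915 CPM in MYC_Off.

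The catalytic subunits of the immunoproteasome did not move together. Psmb8, which takes the place of the chymotrypsin-like subunit Psmb5, and Psmb9, which takes the place of Psmb6, rose 16.4-fold and 11.0-fold. Psmb10, which takes the place of the trypsin-like subunit Psmb7, was 1.83-fold lower, a difference that did not pass the test. These were bulk tissue samples, in which more cells of a type and more RNA per cell cannot be told apart, here and in every result that follows.

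Psmb8 (chromosome 17, 34197721 to 34201454, plus strand, mm10) stood at 1.78, 3.27 and 2.91 CPM in MYC_On replicates 1 to 3 and at 59.3, 28.5 and 43.2 CPM in MYC_Off replicates 1 to 3. Even the lowest MYC_Off library was far above the highest MYC_On library. Psmb8 rose by 4.04 on the log2 scale (SE 0.40, adjusted p = 0.00085 by edgeR's quasi-likelihood test), above that of 94.3% of tested genes. A 30-base stretch before its RefSeq start site is shown because it holds the spacing of an interferon-gamma activated site (GAS), TTCNNNGAA, in capitals (both strands were searched, and 7.18% of 27025 RefSeq promoter windows hold a match). It lies at chr17:34198088-34198117 on the plus strand of GRCm38.p6, within an exon of the longer GENCODE model.
Psmb8: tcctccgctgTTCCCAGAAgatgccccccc
A match describes these letters and is neither a shown binding site nor a cause of the change.

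Psmb9 (chromosome 17, 34181987 to 34187764, minus strand) gave 1.69, 2.74 and 2.17 CPM in MYC_On samples against 30.9, 21.5 and 20.1 CPM in MYC_Off samples. The 3 MYC_Off values were within 1.54-fold of each other and all above those of MYC_On. Its log2 fold change was 3.45 (SE 0.34, adjusted p = 0.00085 by edgeR).

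Psmb10 (chromosome 8, 105935735 to 105938444, minus strand) gave 135, 119 and 174 CPM in MYC_On samples against 73.8, 49.2 and 110 CPM in MYC_Off samples. The highest MYC_Off library came close to the lowest MYC_On library but did not reach it. The log2 fold change was -0.88 (SE 0.33, adjusted p = 0.0601 by edgeR), and -1.05 after subtracting the median of all genes. The call depended on the processing: the adjusted p was 0.045 with DESeq2 size factors, 0.023 with DESeq2, 0.017 without MYC_Off replicate 3 (log2 fold change -1.29), and 0.0068 with library size alone. Its promoter is printed because Psmb10 was the gene that lay lower in MYC_Off, so the promoter was picked with that direction known. That MYC binds E-boxes is background knowledge. The 198 bases lie before the first annotated exon, on the minus strand of GRCm38.p6 at chr8:105938445-105938642, and the capitals mark the canonical E-box CACGTG, 116 to 111 bases before the RefSeq start.
Psmb10: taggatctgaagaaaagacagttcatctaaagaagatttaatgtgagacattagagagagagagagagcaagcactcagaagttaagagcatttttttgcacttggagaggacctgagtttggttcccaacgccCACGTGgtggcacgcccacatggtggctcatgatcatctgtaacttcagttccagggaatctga
CACGTG, which reads the same on both strands, was found in 6.05% of all RefSeq promoter windows of this length, and among the 8 of these 10 genes with a window in the table it was found in that of Psmb10 alone. MYC binding was not measured in these samples, and a part of this E-box in the difference of Psmb10 was not tested.

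The shift in composition of the catalytic set was large on a scale per annotated exon length. With CPM divided by the exon length in kilobases (RPKM), Psmb10 made up 98.8%, 97.6% and 98.6% of the summed level of the 3 immunoproteasome catalytic genes in the MYC_On libraries. In the MYC_Off libraries its share was 62.5%, 66.8% and 78.0%, while that of Psmb8 was 25.3%, 19.6% and 15.4% against 0.656%, 1.36% and 0.831% in MYC_On. These are shares of RNA and say nothing of assembled proteasomes. Their size depends on the merged exon lengths used, 3381 bases for Psmb8, 3660 for Psmb9 and 1705 for Psmb10.

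Ratios within a library do not depend on how the libraries are scaled, and 11 ratios were compared, each with limma against a shared denominator gene and with adjustment over all tested genes. Because the spread of the denominator is known from 6 libraries only while limma borrows across genes, these p-values can be too small. The 7 ratios that passed also passed without borrowing, and a permutation of the 6 libraries cannot give a p under 0.1. The ratio of Psmb8 to its constitutive partner Psmb5, scaled for exon length, was 0.0302, 0.0443 and 0.0342 in MYC_On and 1.62, 0.560 and 1.24 in MYC_Off. It rose by 4.80 on the log2 scale (SE 0.48, limma adjusted p = 4.85e-06, 0.017 without borrowing), where 52.1% of genes changed against Psmb5. Before length scaling the read ratio was 0.114, 0.167 and 0.129 in MYC_On and 6.10, 2.11 and 4.64 in MYC_Off. Where the ratio stands against parity in MYC_Off thus depends on the annotated merged exon lengths, 3381 bases for Psmb8 and 899 for Psmb5. Psmb5 shares 54.1% of its 50-base stretches with other annotated genes, among them a pseudogene copy, so its level and the length-scaled ratio are uncertain.

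The ratio of Psmb9 to Psmb6 was 0.00605, 0.0094 and 0.00506 in MYC_On and 0.117, 0.0766 and 0.0642 in MYC_Off, a rise of 3.59 (SE 0.47, limma adjusted p = 8.94e-05, 0.021 without borrowing), where 44.1% of genes changed against Psmb6. Psmb9 thus stayed well below its partner in all 6 libraries. For Psmb10 and Psmb7 the ratio was 2.83, 2.05 and 3.26 in MYC_On and 2.46, 1.04 and 4.33 in MYC_Off, and the groups overlapped. The log2 difference was -0.26 (95% interval -1.32 to 0.80, -2.00 to 1.49 without borrowing, limma adjusted p = 0.692), which leaves room for a change in either direction, and 46.9% of genes changed against Psmb7. Leaving out MYC_Off replicate 2 turned it to 0.29.

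Against Psmb10, where 47.4% of genes changed, Psmb8 rose by 4.90 (SE 0.59) and Psmb9 by 4.33 (SE 0.63) on the log2 scale, with adjusted p of 0.020 and 0.025 in limma without borrowing. The ratio of Psmb8 to Psmb9 did not change by the test (0.57, 95% interval -0.27 to 1.41, limma adjusted p = 0.18, with 83.8% of genes changed against Psmb9). The constitutive partners themselves were at most modestly different: Psmb5 fell by 0.83 (SE 0.28, adjusted p = 0.0414 by edgeR), while Psmb6 at -0.22 and Psmb7 at -0.63 did not pass. These calls were not firm: Psmb5 did not pass with no filter (adjusted p = 0.0539), with the replicate block (0.0853), when any MYC_On replicate was left out (0.0606 to 0.124) or without MYC_Off replicate 3 (0.0535). Psmb7 was lower with DESeq2 (-0.72, adjusted p = 0.0362) and when MYC_Off replicate 2 was left out (0.0173), and all 3 partners were lower with library size alone. Of the 11 other subunits of the proteasome core 7 fell and none rose, with a median of -0.72, where 22.8% of all tested genes fell. Psma2, with 130 ± 18.5 CPM in MYC_On and 72.4 ± 5.47 in MYC_Off (n = 3 each), had the smallest adjusted p of these, 0.013 by edgeR. That count was sensitive to single libraries, with 2 or 3 of the 11 falling when any MYC_On replicate was left out, and all 11 lower with library size alone.

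**Figure D2:**
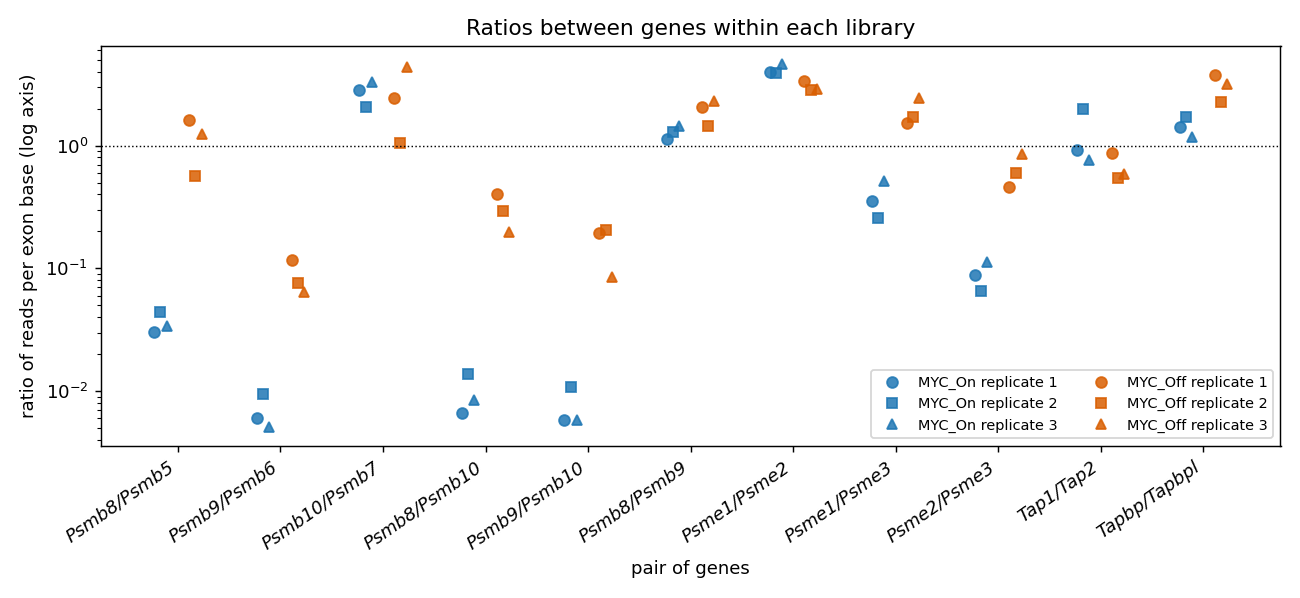
Ratios of exon-length-scaled levels (log axis) for the 11 gene pairs in each library, with MYC_On and MYC_Off shown separately. The Psmb8 to Psmb5 ratio goes from below 0.05 in every MYC_On library to above 0.5 in every MYC_Off library, while the Psmb10 to Psmb7 ratios of the groups overlap.

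The activator subunits had the smallest changes of the 9 genes that rose. Psme1 and Psme2 encode PA28-alpha and PA28-beta, which form a ring that opens the proteasome and is induced by interferon-gamma, and they rose 1.86-fold and 2.62-fold. Psme3, which encodes the related nuclear activator PA28-gamma and is not part of the interferon response, fell.

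Psme1 (chromosome 14, 55578123 to 55581529, plus strand) gave 77.9, 66.5 and 109 CPM in MYC_On against 144, 130 and 196 CPM in MYC_Off. The groups did not overlap, though the highest MYC_On library was near the lowest of MYC_Off. The log2 fold change of 0.89 (SE 0.28, adjusted p = 0.0314 by edgeR) was the least secure of the 9 increases: its adjusted p was 0.117 without MYC_Off replicate 3, 0.0544 without MYC_Off replicate 1, and 0.139 or 0.133 when MYC_On replicate 1 or 2 was left out. Under library size alone its log2 fold change was 0.16 (adjusted p = 0.658). Psme2 (chromosome 14, 55587441 to 55591113, minus strand), whose start lies 12990 bases from that of Psme1 on the opposite strand, gave 15.5, 13.5 and 18.9 CPM in MYC_On against 34.5, 36.6 and 54.7 CPM in MYC_Off. Every MYC_Off library was above every MYC_On library. Its log2 fold change was 1.39 (SE 0.27, adjusted p = 0.0053 by edgeR), and 0.64 with library size alone (adjusted p = 0.0873). Of its 50-base stretches 28.3% also occur in other annotated genes, among them the copy Psme2b, which makes its count less certain.

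Psme3 gave 294, 348 and 281 CPM in MYC_On against 126, 103 and 107 CPM in MYC_Off, which is -1.46 on the log2 scale (SE 0.24, adjusted p = 0.0031 by edgeR). The ratio of Psme1 to Psme3 was 0.354, 0.255 and 0.518 in MYC_On and 1.53, 1.69 and 2.45 in MYC_Off. It therefore crossed from below to above parity, a rise of 5.13-fold (95% interval 2.98 to 8.81, limma adjusted p = 0.00066). Psme2 rose 7.09-fold against Psme3 (4.21 to 11.9, limma adjusted p = 0.00031), where 71.8% of genes changed. Psme1 against Psme2 was 4.00, 3.93 and 4.61 in MYC_On and 3.34, 2.84 and 2.87 in MYC_Off. The MYC_Off ratios were all the lower, but the log2 difference of -0.47 (95% interval -1.16 to 0.22, limma adjusted p = 0.211, against 62.2% of genes changed) passed only without borrowing across genes (0.027). Of the 4 other activators and assembly factors Psme3 was the gene that changed. Psme4, the activator PA200, was at a log2 fold change of 0.13 and Pomp, which helps assemble the immunoproteasome, at 0.34, neither passing and both with the opposite sign under library size alone.

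The transporter genes rose strongly. Tap1 and Tap2 encode the subunits of the TAP transporter, which needs both, and they rose 8.61-fold and 16.01-fold. Tap2 was the steadier of the pair, with a 1.23-fold range over the MYC_Off libraries.

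Tap1 (chromosome 17, 34187553 to 34197225, plus strand) gave 2.27, 6.55 and 2.27 CPM in MYC_On against 45.6, 25.3 and 24.96 CPM in MYC_Off. MYC_On replicate 2 was higher than its group and MYC_Off replicate 1 higher than its own, and the groups were well apart. The log2 fold change was 3.11 (SE 0.53, adjusted p = 0.00345 by edgeR), and 3.76 without MYC_On replicate 2. Tap2 (chromosome 17, 34203527 to 34216321, plus strand) gave 1.69, 2.29 and 2.07 CPM in MYC_On against 36.0, 32.1 and 29.2 CPM in MYC_Off. Both groups were tight, and the log2 fold change was 4.00 (SE 0.28, adjusted p = 0.000805 by edgeR). The ratio of Tap1 to Tap2 overlapped between groups, at 0.927, 1.97 and 0.756 in MYC_On and 0.873, 0.544 and 0.591 in MYC_Off (log2 difference -0.74, 95% interval -1.72 to 0.23, limma adjusted p = 0.127, against 88.7% of genes changed).

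Psmb9 and Tap1 lie head to head in the MHC region, with annotated starts 211 bases apart on opposite strands and 212 bases of overlapping exon, where reads cannot be assigned to either gene without knowing the strand. Stretches from the region of their starts are shown because the genes share it and rose together. In capitals are the core of a cyclic AMP response element, TGACG, and a CCAAT box. Words of these kinds are parts of the class I regulatory module to which Nlrc5 is recruited through other factors. Counted from the RefSeq start of Tap1, the CCAAT match begins at base -222 and the TGACG match at base -86. Whether matches so placed form that module was not tested. All 250 bases of the Tap1 and Psmb9 promoter windows lie within annotated exons. The stretches lie at chr17:34187458-34187487 and chr17:34187322-34187351 on the plus strand of GRCm38.p6, and the last is the minus strand of the first region shifted by 1 base, chr17:34187457-34187486, as Psmb9 reads it.
Tap1, TGACG: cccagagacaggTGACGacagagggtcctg
Tap1, CCAAT: gggctcggctttCCAATcagcggctgcgcg
Psmb9, CGTCA: aggaccctctgtCGTCAcctgtctctgggc
Searched on both strands, TGACG occurs in 17.9% and CCAAT in 34.5% of RefSeq promoter windows, so matches to such short words are common.

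Tapbp, which encodes tapasin, rose 8.22-fold. Tapasin holds empty class I molecules at the transporter and edits their peptides. Tapbp (chromosome 17, 33915899 to 33929292, plus strand) gave 24.9, 24.8 and 23.6 CPM in MYC_On against 173, 130 and 299 CPM in MYC_Off. The MYC_On libraries were almost equal and the MYC_Off libraries spread 2.31-fold, all of them above. Tapbp rose by 3.04 on the log2 scale (SE 0.35, adjusted p = 0.00106 by edgeR). Of the 50-base stretches of Tapbp 23.2% also occur in other annotated genes. Among these is Zbtb22, whose exons overlap those of Tapbp by 149 bases on the same strand. The count of Tapbp is less certain for it. Its homologue Tapbpl, which encodes the peptide editor TAPBPR that works outside the TAP complex, also rose, from 11.3 ± 1.90 to 42.6 ± 16.3 CPM (by 1.92 in log2, adjusted p = 0.00341 by edgeR). The ratio of Tapbp to Tapbpl was 1.42, 1.72 and 1.16 in MYC_On and 3.78, 2.26 and 3.18 in MYC_Off, a 2.13-fold rise (95% interval 1.18 to 3.85, limma adjusted p = 0.0252, against 67.5% of genes changed). Leaving out MYC_Off replicate 1 (adjusted p = 0.0643), MYC_On replicate 1 (0.102) or MYC_On replicate 3 (0.113) ended that call.

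Of 6 other folding and loading factors of the endoplasmic reticulum Tapbpl was the gene that rose by edgeR, and the median was 0.27. The chaperone calreticulin, Calr, was at 1063 ± 141 CPM in MYC_On and 1845 ± 579 in MYC_Off (log2 fold change 0.80, adjusted p = 0.111 by edgeR), and calnexin, Canx, at 745 ± 82.3 and 481 ± 101 CPM (-0.63, adjusted p = 0.125). With DESeq2 Calr was higher (0.70, adjusted p = 0.0377) and Canx lower (-0.72, 0.00855), and Canx was also lower with library size alone (-1.37, 0.00795).

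Of the 7 peptidases that trim or destroy class I peptides, 1 rose and 3 fell, beside 29.9% and 22.8% of all tested genes. Erap1, the aminopeptidase that trims peptides inside the endoplasmic reticulum, went up from 32.4 ± 3.12 to 102 ± 36.7 CPM (1.66 in log2, SE 0.29, adjusted p = 0.00367 by edgeR). Thop1, a cytosolic oligopeptidase known to destroy class I peptides, fell from 199 ± 20.9 to 16.4 ± 5.74 CPM (-3.60, SE 0.31, adjusted p = 0.000805). Npepps, a cytosolic aminopeptidase, fell from 95.1 ± 14.9 to 42.1 ± 4.04 CPM (-1.18, SE 0.21, adjusted p = 0.00397), and Blmh, picked out after its values were seen, fell by 0.99 on the log2 scale. The median of the 7 was -0.52, and with library size alone 1 rose and 5 fell.

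B2m, the light chain shared by all class I molecules, was the most abundant of the 10 genes in both groups and rose 6.98-fold. B2m (chromosome 2, 122147686 to 122153083, plus strand) gave 361, 278 and 475 CPM in MYC_On against 2296, 2915 and 2566 CPM in MYC_Off. The MYC_Off libraries were within 1.27-fold of each other. On the log2 scale B2m rose by 2.80 (SE 0.39, adjusted p = 0.00168 by edgeR). Its promoter, the 249 bases before the first annotated exon at chr2:122147437-122147685 on the plus strand of GRCm38.p6, is printed because it carries words of the kinds known from class I promoters. The capitals mark an interferon-stimulated response element core (GAAA, any 2 bases, GAAA), an NF-kB word (GGGA, any base, TTTCC, here on the minus strand), the TGACG core and a CCAAT box on the minus strand.
B2m: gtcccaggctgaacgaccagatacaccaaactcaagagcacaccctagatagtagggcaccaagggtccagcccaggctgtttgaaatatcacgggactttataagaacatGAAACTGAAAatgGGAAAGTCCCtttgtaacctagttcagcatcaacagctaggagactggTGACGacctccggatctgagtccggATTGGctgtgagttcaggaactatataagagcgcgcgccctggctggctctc
The 4 matches do not overlap each other. The interferon element core occurs in 3.04% and the NF-kB word in 0.337% of RefSeq promoter windows on either strand.

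The heavy chains that pair with B2m rose with it. Of 15 classical and nonclassical heavy chain genes 14 rose and none fell, with a median of 3.28, and the counts were the same with library size alone. Of all tested genes 29.9% rose, and 17.9% with library size alone. H2-K1, a classical heavy chain, gave 68.1, 66.2 and 75.6 CPM in MYC_On against 924, 818 and 860 CPM in MYC_Off, so both groups were tight and far apart (log2 fold change 3.63, SE 0.30, adjusted p = 0.000805 by edgeR). H2-T23, the nonclassical Qa-1 chain, rose from 7.73 ± 2.08 to 45.1 ± 5.57 CPM (2.54, adjusted p = 0.000945), and Mr1, which presents vitamin metabolites, from 1.73 ± 0.674 to 28.1 ± 9.65 CPM (4.01, adjusted p = 0.000967). Not all heavy chains were as even over the MYC_Off replicates 1 to 3 as H2-K1. H2-D1 gave 1958, 1315 and 462 CPM there, and H2-Q10 gave 129, 827 and 1288 CPM. H2-T24 was the gene that did not pass (0.82, adjusted p = 0.235). Heavy chain genes are near-identical copies in parts, and the handling of reads that match several of them is not given in the sources used here, so their split between genes is uncertain.

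**Figure D3:**
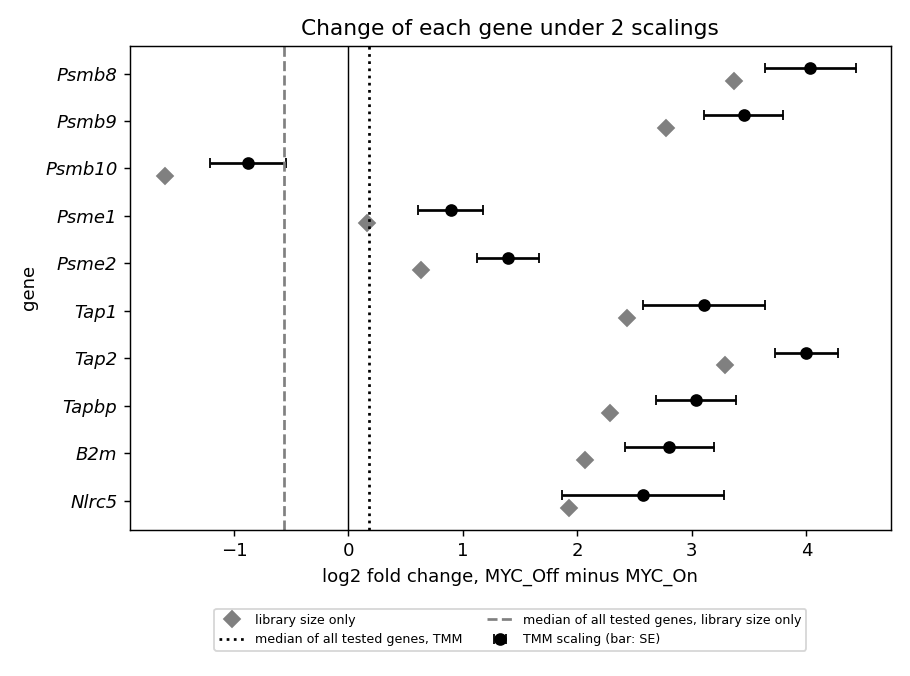
Log2 fold change of each of the 10 genes, MYC_Off minus MYC_On, under TMM scaling (circles, bars are SE) and library size alone (diamonds), with the median of all tested genes as vertical lines. Each gene moves left by about the same distance as the median, and Psme1 goes from 0.89 to 0.16.

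Nlrc5 was the least abundant of the 10 genes and rose 5.94-fold with the widest spread. It encodes the transactivator that is recruited to class I promoters and acts on B2m, Tap1, Psmb9 and the heavy chains. Nlrc5 (chromosome 8, 94434356 to 94527272, plus strand) gave 0.935, 2.86 and 0.789 CPM in MYC_On against 14.8, 8.65 and 3.99 CPM in MYC_Off, or 21, 70 and 16 reads and 269, 113 and 52 reads. The lowest MYC_Off library was only a little above the highest MYC_On library. The log2 fold change was 2.57 (SE 0.71, adjusted p = 0.0195 by edgeR). It did not pass when MYC_On replicate 1 (2.26, adjusted p = 0.0769) or MYC_On replicate 3 (2.21, 0.0757) was left out, nor under library size alone (1.93, 0.0704), and it was 1.90 without MYC_Off replicate 1 and 3.34 without MYC_On replicate 2.

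Over the 6 libraries, 3 in each of 2 groups that differ in most genes, Pearson's r of log2 CPM with Nlrc5 was 0.96 for Tap1, 0.91 for Psmb9, 0.88 for Tap2 and for Psmb8, 0.78 for B2m and 0.77 for Tapbp. It was 0.64 for Psme2, 0.51 for Psme1 and -0.87 for Psmb10. These are descriptions of 6 points that share the group difference. A value over 0.95 was reached by 209 of 14129 other tested genes, 1.48% of them, and the genes of no list with the closest pattern were Ppip5k1 (0.997), Pced1b (0.996), Stard9 (0.993), Dclk2 (0.993) and Appl2 (0.992).

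On the RPKM scale, which compares genes per exon length, the order of levels in MYC_On was B2m (431.6 ± 115.1), Psmb10 (83.7 ± 16.6), Psme1 (38.2 ± 9.94), Psme2 (9.06 ± 1.54) and Tapbp (6.73 ± 0.201), each apart from the next. Psmb8 (0.785 ± 0.230), Tap1 (0.675 ± 0.451), Psmb9 (0.602 ± 0.144) and Tap2 (0.534 ± 0.0802) followed, with libraries that overlapped between neighbours, and Nlrc5 (0.180 ± 0.136) was below Tap2. In MYC_Off, B2m (3014 ± 360.5) was again apart, while Psme1 (71.0 ± 15.8), Tapbp (55.3 ± 24.3), Psmb10 (45.7 ± 18.1) and Psme2 (23.8 ± 6.29) overlapped from one to the next. Psmb8 (12.9 ± 4.55), Tap2 (8.58 ± 0.911), Psmb9 (6.61 ± 1.61) and Tap1 (5.83 ± 2.16) formed another overlapping run above Nlrc5 (1.08 ± 0.637). Tapbp thus moved from the fifth place to the level of Psmb10 and Psme1, and Psmb10 from the second place to the fourth.

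Among 19 transcription regulators of class I genes 11 rose and 3 fell, with a median of 1.28, and with library size alone 8 rose and 5 fell. Of all tested genes 29.9% rose and 22.8% fell, and with library size alone 17.9% and 37.5%. Irf1, an interferon-induced activator of Psmb9, Tap1 and B2m, went up from 16.04 ± 1.19 to 52.8 ± 7.32 CPM (1.72 in log2, SE 0.21, adjusted p = 0.00124 by edgeR). Irf2, which binds the same elements, rose from 17.5 ± 1.29 to 107 ± 39.6 CPM (2.62, SE 0.30, adjusted p = 0.00105). Ezh2, the methyltransferase of the Polycomb complex and a known repressor of class I genes, fell from 37.0 ± 2.35 to 9.10 ± 1.89 CPM (-2.02, SE 0.24, adjusted p = 0.00116). The other genes that fell were Nfyb and Nfyc, subunits of the factor that binds CCAAT, by 0.79 and 0.89 on the log2 scale. The call of Nfyc was lost with the replicate block (adjusted p = 0.0570) and when any MYC_On replicate was left out (0.0534 to 0.0612), and DESeq2 called 5 of the 19 lower.

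Genes of the interferon pathway were mostly higher. Of 9 interferon, receptor and Janus kinase genes 7 were tested and 6 rose, with a median of 1.43, and 3 rose with library size alone. For this list and those below, the share of all tested genes that rose was 29.9%, and 17.9% with library size alone. The receptor chains Ifnar2 (16.1 ± 1.18 to 87.8 ± 17.6 CPM, log2 fold change 2.44) and Ifngr1 (29.2 ± 1.31 to 150 ± 81.1 CPM, 2.36) and the kinase Jak2 (9.86 ± 1.13 to 39.3 ± 7.32 CPM, 2.00) had the smallest adjusted p by edgeR, 0.000849, 0.00303 and 0.00118. All 12 tested genes of a list of interferon-gamma targets rose, with a median of 2.36, against 7 of 12 with library size alone. The GTPase Iigp1 went from 4.58 ± 1.18 to 336 ± 137 CPM (6.19, adjusted p = 0.000805), and the GTPases Ifi47 and Igtp rose by log2 fold changes of 3.95 and 2.16. All 7 genes of the MHC class II pathway, which antigen-presenting cells use for peptides taken up from outside, rose with a median of 4.17, among them H2-DMa (4.00), H2-Aa (4.51) and H2-Ab1 (4.17). Without MYC_Off replicate 1 these stood at 2.76, 3.07 and 2.73, and Ifngr1 at 1.68.

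**Figure D4:**
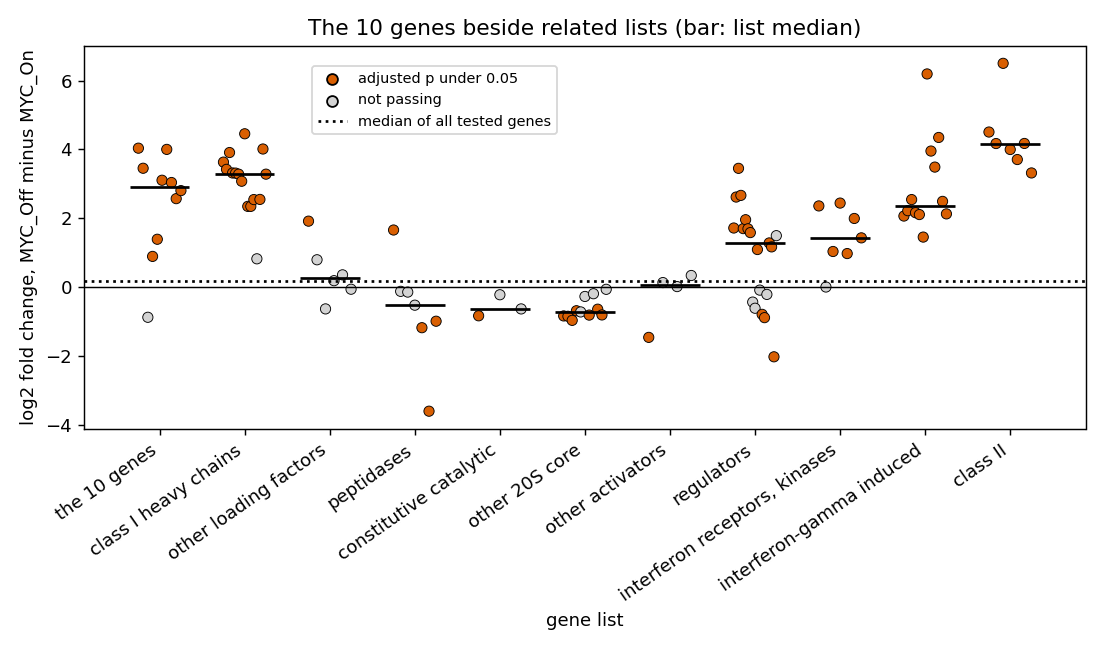
Log2 fold changes of the genes of each related list, MYC_Off minus MYC_On, with 1 point per tested gene and a bar at the median of the list, beside the median of all tested genes at 0.18. Heavy chains and class II genes lie highest, and the other proteasome core subunits lie below 0.

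Markers of immune and liver cells were also higher in MYC_Off, and their order over the MYC_Off libraries is given beside that of the class I genes. Ptprc, the pan-leukocyte antigen CD45, gave 17.3, 15.4 and 17.3 CPM in MYC_On against 229, 60.6 and 29.0 CPM in MYC_Off (log2 fold change 2.67, adjusted p = 0.0173 by edgeR). MYC_Off replicate 1 was thus far higher than the other two, with a 7.90-fold range. Without it the log2 fold change was 1.28 (adjusted p = 0.0158), and the call was lost when any MYC_On replicate was left out (0.0592 to 0.0749) or with no filter (0.0609). All 10 macrophage markers rose (summed CPM 610 to 1173 in MYC_On, and 8224, 2973 and 2159 in MYC_Off), as did all 6 tested T cell markers (5.48 to 10.5, and 214, 32.9 and 48.2 over all 8), all 3 tested dendritic cell markers (3.83 to 5.89, and 71.0, 21.7 and 25.2) and all 3 tested neutrophil markers (0.57 to 1.83, and 105, 98.5 and 150). Cd4 made up most of the T cell sum in replicate 3, and without it the sums were 1.20 to 3.11 CPM in MYC_On and 166, 17.4 and 3.69 CPM in MYC_Off. Summed over all 6 NK cell markers, the CPM were 3.38 to 5.32 in MYC_On and 97.8, 14.7 and 3.07 in MYC_Off. Summed over all 4 B cell markers, they were 0.39 to 0.89 in MYC_On and 41.6, 3.67 and 1.54 in MYC_Off. Of 5 tested NK cell markers 1, Nkg7, rose, and the tested B cell marker, Cd79b, rose. Both calls were lost when any MYC_On replicate was left out (adjusted p of 0.0777 to 0.0845 for Nkg7 and 0.0522 to 0.0733 for Cd79b). Nkg7 also did not pass with limma-voom (0.101), with the replicate block (0.0900) or without MYC_Off replicate 1, where its log2 fold change went from 3.96 to 1.67 (0.0614), and that of Cd79b went from 4.28 to 2.12. Several defining markers were at 0 reads in MYC_Off replicate 3, among them Cd5 of T cells, Klrb1c and Gzma of NK cells and Cd79a and Ms4a1 of B cells. Hepatocyte markers, which check the labelled tissue, summed to 2467 to 5773 CPM in MYC_On and to 77448, 136821 and 239252 CPM in MYC_Off, with all 6 higher. Endothelial markers (3 of 4) and stellate cell markers (5 of 5) rose as well. Of all tested genes 29.9% were higher by the main fit and 17.9% with library size alone. Under that scaling 7 of the 10 macrophage markers and 2 of the 3 tested dendritic cell markers rose. Lyz2, the most abundant macrophage marker, did not pass in edgeR with the replicate block (adjusted p = 0.0513) or without MYC_On replicate 1 (0.0605) or 2 (0.0616).

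All 10 class I genes had a smaller range over the MYC_Off libraries than Ptprc, from 1.23-fold for Tap2 to 3.70-fold for Nlrc5. Of the neutrophil markers, S100a8 had a range of 1.28-fold there, Mpo 1.69-fold and S100a9 1.77-fold. Ly6g, at 3 to 17 reads, had one of 5.69-fold. The log2 difference of MYC_Off replicates 1, 2 and 3 from the MYC_On mean was 3.77, 1.86 and 0.79 for Ptprc and 3.40, 2.64 and 1.54 for Nlrc5, both highest in replicate 1 and lowest in replicate 3. Tap1 (3.77, 2.92 and 2.90), Psmb9 (3.77, 3.25 and 3.16) and Tap2 (4.10, 3.93 and 3.79) had the same order with smaller gaps. For B2m the difference was 2.66, 3.01 and 2.82, lowest in replicate 1, and for Psmb8 4.47, 3.42 and 4.01, lowest in replicate 2. Tapbp (2.82, 2.41 and 3.61), Psme1 (0.80, 0.65 and 1.25) and Psme2 (1.12, 1.20 and 1.78) were highest in replicate 3. Of the 10 genes 5 were highest in MYC_Off replicate 1, 1 in replicate 2 and 4 in replicate 3, among them Psmb10, which was lower in MYC_Off. All 8 T cell, all 6 NK cell, all 4 B cell, all 5 dendritic cell and 9 of 10 macrophage markers were highest in replicate 1. All 4 neutrophil markers were highest in replicate 3, and of the 6 hepatocyte markers 4 were highest in replicate 3 and 2 in replicate 2. Over the MYC_Off libraries 6 of the 10 genes varied by under 2-fold. The shares of all tested genes with such a range, or highest in each replicate, were not counted. Without MYC_Off replicate 1, 8 of the 10 class I genes were higher by edgeR, Psme1 being the gene lost. In that fit 4022 of all 14425 tested genes were higher. The part of these cell types in the change of the class I genes was not tested.

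**Figure D5:**
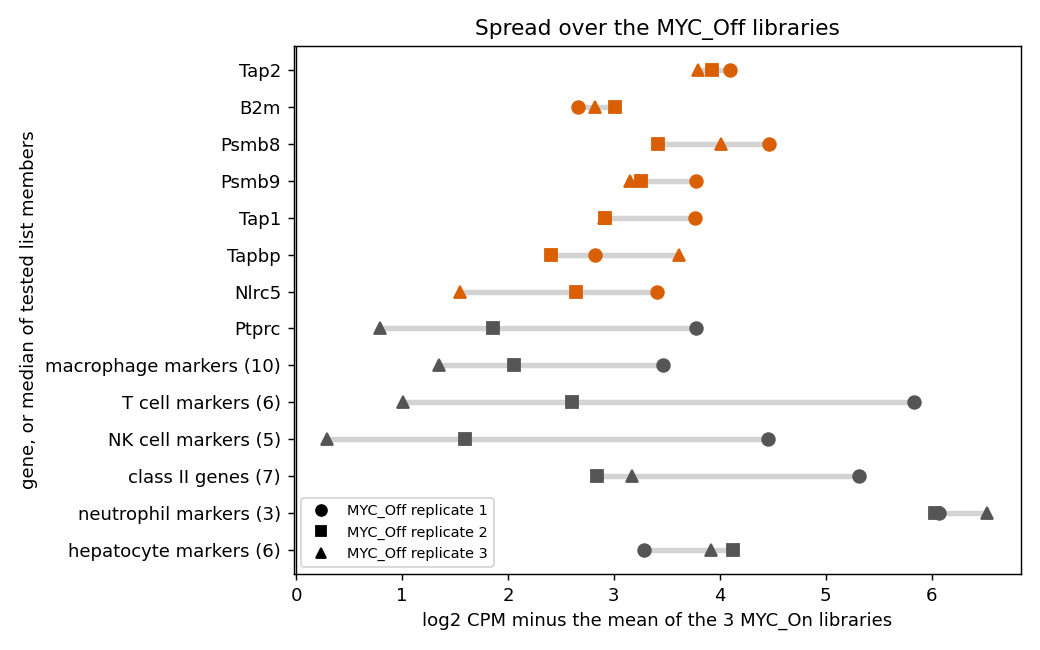
Log2 difference of each MYC_Off library from the MYC_On mean for the class I genes and for the medians of related and cell type marker lists. The macrophage, T cell and NK cell medians are highest in replicate 1, while B2m lies between 2.66 and 3.01 in all 3 libraries.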

How the data were processed

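The authors deposited raw read counts per gene symbol for 6 libraries. Per the submitters' processing notes, Trimmomatic, STAR, Picard, featureCounts and DESeq2 were used with mm10. The sources used here do not give versions, annotation, strand setting or how multi-mapped reads were treated. Of 52459 rows, 26 had a date or repeated name and were kept by row number, and 91.5% of symbols matched GENCODE mouse release 21, which gave positions, exon lengths and shared 50-base stretches. Promoters came from the RefSeq table (GRCm38.p6, 250 bases before each start), which held 8 of the 10 genes and not Nlrc5 or Tap2.

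Groups and replicate numbers came from the titles. MYC_Off was compared with MYC_On in edgeR 4.0.16 under R 4.3.3 (filterByExpr with a minimum count of 10 and total of 15, TMM, robust quasi-likelihood fit, Benjamini-Hochberg adjustment over all 14130 tested genes, threshold 0.05). Ratios were tested with limma 3.58.1 on log2 CPM (prior count 2), and also without borrowing the spread across genes and by permutation, both added after the values were seen. RPKM are CPM per kilobase of merged exons, so levels, shares and length-scaled ratios between genes depend on that annotated length. Both fits were also run on simulated data, and the outcome is not given here. Libraries of a group differed by more than counting noise, the chi-square over genes being at least 29.1 per degree of freedom.

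The genes and lists were chosen with earlier results of these data known. Named are the 10 genes, their pair partners, in each list the 3 genes of smallest adjusted p and those passing in the other direction (or the most abundant where none passed), the most abundant marker and markers at 0, and the 5 genes most like Nlrc5. Blmh, H2-D1, H2-Q10, H2-T24, Ifng and Ifnb1 were picked after their values were seen. Some listed genes are not reported here by name. Alternatives were DESeq2 1.42.0 and its size factors, library size only, TMM without the 20 most abundant genes, no filter, 1 CPM in 3 libraries, limma-voom, a non-robust fit, a prior count of 0.5, glmTreat against 2-fold, a replicate block, a threshold of 0.01 and omission of each replicate in turn. Figures were drawn with matplotlib 3.10.9.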

Additional observations from a re-analysis of the deposited data

How the results depend on the processing

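The counts of all genes moved most with the scaling and the threshold: 2527 genes were higher and 5300 lower with library size alone, 2368 and 1889 at an adjusted p of 0.01, and 2621 and 1428 with glmTreat against 2-fold. Leaving out 1 replicate at a time gave 2776 to 4317 higher and 2337 to 3786 lower, the fewest higher without MYC_On replicate 2. Of the 10 class I genes 7 to 9 were higher and 0 to 1 lower when 1 replicate was left out, and 6 to 7 of the 11 ratios were called. The number of lower class I genes was 1, always Psmb10, with DESeq2 size factors, with library size alone, with no filter, with DESeq2, with the replicate block and without MYC_Off replicate 3. The number of higher class I genes was 6 with library size alone and with glmTreat, 7 at an adjusted p of 0.01 and 8 with no filter, where Psme1 had an adjusted p of 0.0581. With glmTreat the genes lost were Psme1, Psme2 and Nlrc5. No class I gene changed direction under any of these settings. Reversed values, none of them past the threshold, were Pomp at -0.42 and Psme4 at -0.68 with library size alone, Psme4 at -0.03 without MYC_On replicate 3, -0.27 without MYC_Off replicate 2 and -0.0093 without MYC_Off replicate 3 (up to 0.26 when others were left out), and the ratio of Psmb10 to Psmb7 at 0.29 without MYC_Off replicate 2 (down to -0.73 without MYC_Off replicate 3). The cause was not tested.

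Same-numbered samples share only a number: their deviations correlated at -0.26, -0.17 and 0.04. With that number as a block 3152 genes were higher and 2611 lower, 9 class I genes were higher and 1 lower (Psmb10, adjusted p = 0.0397 by edgeR), and 7 ratios were called. In the MYC_On libraries Nlrc5 had 16 to 70 reads.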

Other observations

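Reads of Ifng and Ifnb1, the interferon genes in the lists, were almost absent. Other interferon genes were not looked up. Ifng, which encodes interferon-gamma, had 0, 0 and 2 reads in the MYC_On libraries and 2, 0 and 0 reads in the MYC_Off libraries, and Ifnb1, which encodes interferon-beta, had 0, 0 and 1 read and then none in any MYC_Off library. Both were below the filter and were not tested, and a difference between groups was not detectable at this depth.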
